A study of Mesocricetus auratus with 64 samples.

Results

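Several housekeeping genes of mammals have a copy that is used mainly in germ cells. Rpl10l, Ldhc, Pgk2, Gapdhs, Rpl39l and Cetn1 were taken by symbol from the gene count files of a study of golden hamsters (breed Syrian) that lack Pld6, and 4 of these 6 copies (Rpl10l, Pgk2, Gapdhs and Cetn1), out of 32303 gene rows, had a row. Ldhc and Rpl39l were not analysed here. The groups used were Pld6 KO testis and wild-type testis, each with 3 libraries, both from animals labelled as 3 weeks old (21 d.p.p. in the protocol). The others were single oocytes of Pld6 KO and wild-type females labelled GV or MII and single embryos of both genotypes labelled 10PEA or 1C-20PEA, or at later stages 33PEA or 54PEA. With another set of Pld6 KO MII oocytes, labelled D321, they form 13 groups of 2 libraries. The labels spell out neither PEA, 1C nor D321, give no allele of Pld6, and name no animal for any library, so the spread between libraries may be partly technical. Pld6 encodes a mitochondrial surface enzyme needed to make piRNAs, the small RNAs that silence transposons in germ cells. GV oocytes still hold the germinal vesicle, and MII oocytes are arrested in the second meiotic division.

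These copies are known mostly from mouse and human. In those species Pgk1, Rpl10 and Cetn2 are X-linked, and their copies Pgk2, Rpl10l and Cetn1 arose by retrotransposition onto autosomes. The sex chromosomes are silenced during meiosis in males, and the autosomal copies are active in spermatocytes and later cells at a time when the X-linked genes are not transcribed. Gapdhs is a copy of the glycolytic gene Gapdh that is made in spermatids and serves the sperm tail. None of these placements could be read from the hamster table used here, in which chromosomes are not named.

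Testis libraries held 31572737 to 34257661 gene counts, and oocyte or embryo libraries 1544198 (KO-54PEA replicate 2) to 11031837 (WT-MII replicate 2), where spike-in RNA took 0.361% to 77.8% of the counts. The KO-54PEA libraries stood apart: their rank correlation was 0.434, against 0.709 to 0.943 within the other oocyte and embryo groups. Spike-in RNA took 55.5% and 77.8% of their counts, against 5.23% and 4.42% in WT-54PEA. They had 5381 and 4403 genes with a count, against 12365 and 11680 in WT-54PEA. Levels are given in CPM, counts scaled to library size, with sizes corrected by TMM (trimmed mean of M values) separately for testis and for oocytes and embryos, so that levels of one gene can be set side by side within each but not closely across them. Pld6 averaged 3.72 ± 1.41 CPM in KO testis and 42.5 ± 8.11 CPM in WT testis (SD, n = 3 each), a log2 change of −3.51 (SE 0.32, edgeR adjusted p = 2.46e-05). In GV oocytes Pld6 stood at 38.1 and 25.1 CPM in KO, against 35.1 and 34.3 CPM in WT, so that the 2 groups overlapped. Both KO libraries lay below both WT libraries at MII (7.14 and 1.703 CPM in KO, against 8.55 and 13.5 CPM in WT), 10PEA (6.51 and 0 CPM, against 10.98 and 15.7 CPM), 1C-20PEA (12.6 and 11.6 CPM, against 28.4 and 20.9 CPM) and 33PEA (0 CPM in both, against 5.11 and 27.3 CPM). The D321 set had 13.6 and 6.99 CPM, overlapping WT-MII, and no library at 54PEA had a count. Without the allele, counts of the gene in oocytes do not check the genotype.

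In KO testis Pgk2 and Cetn1 were nearly absent. Rpl10l, Pgk2 and Cetn1 were lower in KO testis, and Gapdhs was higher from a low level. All 4 copies passed the threshold of an adjusted p under 0.05 (edgeR quasi-likelihood test, adjusted by Benjamini and Hochberg over 18024 genes), 3 lower and 1 higher. Of all genes tested, 58% passed, 30.2% lower and 27.9% higher, so that passing by itself sets no copy apart. The median log2 change over all genes was 0.03. In whole testis, fewer cells of a type and less RNA per cell cannot be told apart.

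Rpl10l encodes a copy of the large-subunit ribosomal protein uL16 and is needed for male meiosis in mouse. It stood at 4.50, 4.68 and 4.81 CPM in KO testis (144, 144 and 141 counts), against 198.1, 172.2 and 238.9 CPM in WT testis (6977, 6421 and 8271 counts). The groups were far apart, and the KO libraries lay within a narrow band. Its log2 change was −5.44 (SE 0.23, adjusted p = 1.24e-06, edgeR), and pooled over libraries its level was 43.4-fold lower in KO testis. A separation without overlap in this direction occurred in 34.8% of all genes tested.

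Pgk2 encodes the germ cell form of phosphoglycerate kinase, the first enzyme of glycolysis that yields ATP. It had 2, 0 and 0 counts in KO testis, against 1278, 808 and 2144 counts in WT testis. In WT testis this was 40.0 ± 20.4 CPM (SD, n = 3), with replicate 3 the highest and replicate 2 the lowest. Pooled over libraries, Pgk2 was 1819-fold lower in KO testis, with an exact 95% interval of 503.2 to 15020 that covers counting error only (edgeR adjusted p = 5.36e-06). Both KO counts of Pgk2 came from replicate 1. Reads copied by PCR are not independent molecules, so all counting intervals and limits here are too narrow for the full error.

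Cetn1 encodes a centrin, a calcium-binding protein of centrioles and basal bodies, and is needed for sperm formation in mouse. It had 4, 0 and 4 counts in KO testis, against 1168, 793 and 1689 counts in WT testis. The WT libraries stood in the same order as for Pgk2 and Rpl10l, at 33.2, 21.3 and 48.8 CPM in replicates 1, 2 and 3. The log2 change was −8.57 (SE 0.63, adjusted p = 6.74e-06, edgeR), and the pooled level was 392.3-fold lower in KO testis (counting interval 198.9 to 909.5).

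Gapdhs went the other way, at a low level. It had 161, 174 and 130 counts in KO testis (5.03, 5.66 and 4.43 CPM), against 93, 106 and 65 counts in WT testis (2.64, 2.84 and 1.88 CPM). The groups did not overlap, as was the case with KO higher for 31.3% of all genes tested. The log2 change was 1.04 (SE 0.31, adjusted p = 0.0168, edgeR). Without WT testis replicate 1 or replicate 3 the call was lost, at log2 changes of 1.08 (adjusted p = 0.0608) and 0.87 (adjusted p = 0.0745, edgeR). In the RefSeq annotation (BCM_Maur_2.0) Gapdhs overlaps LOC121135981, listed as a non-coding RNA, which had 38, 25 and 40 counts in KO testis, against 23, 16 and 2 counts in WT testis. Whether the counting used strand is not given in the sources used here, so reads of these overlapping genes cannot be told apart with certainty.

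Most housekeeping copies were higher in KO testis. Of 7 tested, 4 were higher in KO testis, 1 was lower and 2 did not pass, and their median log2 change was 1.04. Among all genes tested, 27.9% were higher and 30.2% lower, so that with 7 genes the number that passed sets the list little apart. Rpl10, the ubiquitous form of uL16, averaged 1113 ± 314.3 CPM in KO testis and 448.5 ± 48.9 CPM in WT testis, a log2 change of 1.31 (SE 0.24, edgeR adjusted p = 0.00123). Pgk1, the somatic phosphoglycerate kinase, averaged 90.4 ± 7.02 CPM in KO testis and 43.8 ± 4.88 CPM in WT testis, a log2 change of 1.04 (SE 0.18, edgeR adjusted p = 0.00106). For both genes, every KO library lay above every WT library.

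The remaining housekeeping copies moved less evenly. Rpl39, a small protein of the large ribosomal subunit and the relative of Rpl39l, was higher in KO testis by 1.89 on the log2 scale (edgeR adjusted p = 9.69e-05), and Ldhb, a lactate dehydrogenase subunit related to Ldhc, by 1.23 (edgeR adjusted p = 0.000243). Cetn2, which acts in centrioles and in DNA repair, did not pass, at 34.5 CPM in KO testis and 28.9 CPM in WT testis (log2 change 0.26, edgeR adjusted p = 0.343). Cetn3, another centrin, was lower, at 29.9 CPM in KO testis and 48.8 CPM in WT testis (log2 change −0.70, edgeR adjusted p = 0.0261). The call of Cetn3 was lost without WT testis replicate 1 or 3 or KO testis replicate 1 or 2, with edgeR adjusted p-values of 0.0626 to 0.0936, and held without either of the other libraries. Gapdh, the somatic glyceraldehyde-3-phosphate dehydrogenase, had 1338, 1622 and 595.6 CPM in KO testis, against 728.2, 734.8 and 787.1 CPM in WT testis. It did not pass (log2 change 0.66, edgeR adjusted p = 0.101), but without KO testis replicate 3, the low one, it did (log2 change 0.99, adjusted p = 0.000347).

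**Figure D1:**
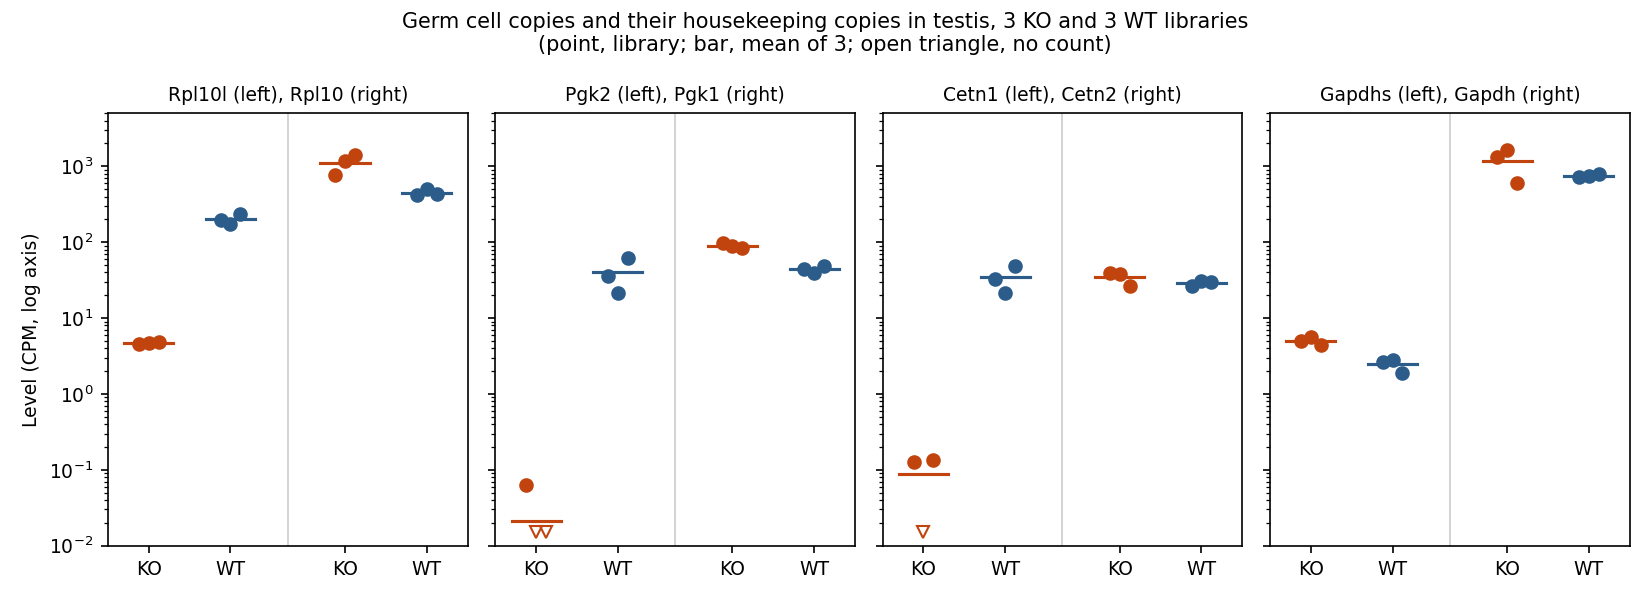
Levels of the 4 germ cell copies and of their housekeeping copies in testis (CPM on a log axis, one point per library, bar for the mean of 3, open triangles for libraries without a count). KO libraries stand below all WT libraries for Rpl10l, Pgk2 and Cetn1 and above them for Gapdhs, Rpl10 and Pgk1, while Cetn2 and Gapdh overlap.

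The balance within each pair of genes was set out as the share of the pair's counts that the germ cell copy took. Transcript lengths were not used here, so a share shows how balance differed between groups and not which gene had more transcripts. Pgk2 took 0.0641%, 0% and 0% of the Pgk2 and Pgk1 counts in KO testis, against 45.1%, 35.8% and 56.0% in WT testis. Cetn1 took 0.315%, 0% and 0.517% of the Cetn1 and Cetn2 counts in KO testis, against 55.4%, 41.0% and 62.3% in WT testis. In both pairs a large part of the WT counts came from the germ cell copy, and almost none of the KO counts.

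Rpl10l took 0.578%, 0.398% and 0.344% of the Rpl10l and Rpl10 counts in KO testis, against 32.4%, 25.5% and 35.8% in WT testis. The mean log2 ratio of copy to housekeeping gene, with 0.5 added to each count, differed by −6.70 between KO and WT testis for this pair. The difference was −11.4 for Pgk2 over Pgk1 and −9.09 for Cetn1 over Cetn2. In each of these 3 pairs the KO and WT ratios did not overlap, and the two-sided exact permutation p was 0.1, the smallest that 3 against 3 libraries allow (0.133 adjusted over 4 pairs).

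Gapdhs took under 1% of its pair in every library, at 0.374%, 0.348% and 0.738% in KO testis, against 0.361%, 0.385% and 0.238% in WT testis. These groups overlapped, and the log2 ratio differed by 0.51 (exact permutation p = 0.5, two-sided). The difference in balance was smaller than the spread between libraries. Rpl10l and Rpl10 are near-identical in the species where they were described, and how reads that fit both were counted is not given in the sources used here, so the split of that pair is uncertain.

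Glycolysis enzymes and transporters that passed were more often higher than lower in KO testis, and the few that were lower had the greater changes. Of 24 with a row, 23 were tested, and 11 were higher, 3 lower and 9 did not pass (edgeR), with a median log2 change of 0.87, beside 0.03 over all genes. Of all genes tested, 58% passed, 27.9% higher and 30.2% lower, so that the list passed at a share near that of all genes. Among those higher were the pyruvate kinase Pkm (log2 change 1.49, edgeR adjusted p = 0.000312), the lactate exporter Slc16a3 (1.49, adjusted p = 0.000773) and the aldolase Aldoc (1.36, adjusted p = 0.000199). The glucose transporter Slc2a3 averaged 1.41 CPM in KO testis and 388.9 CPM in WT testis (log2 change −8.11, edgeR adjusted p = 1.24e-06). The phosphoglycerate mutase Pgam2, known as the muscle form, averaged 0.646 CPM in KO testis and 33.8 CPM in WT testis (log2 change −5.69, edgeR adjusted p = 8.55e-06). The enolase Eno3, also known from muscle, averaged 4.45 CPM in KO testis and 33.2 CPM in WT testis (log2 change −2.90, edgeR adjusted p = 9.03e-05). Pgk1 is among the 11 that were higher, while its germ cell copy Pgk2 was lower.

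Other germ cell copies of general genes were lower in KO testis with few exceptions. Of 18 with a row, 14 were tested, and 12 were lower, 1 higher and 1 did not pass (edgeR), with a median log2 change of −5.24. Among all genes tested, 30.2% were lower and 27.9% higher. Ppp3r2, a germ cell subunit of the phosphatase calcineurin, had 2 counts in KO testis and 7598 in WT testis, 3267-fold lower in KO testis after scaling (counting interval 904.1 to 26980). Actl7b, an actin-like protein of spermatids, had a log2 change of −9.28 (edgeR adjusted p = 1.54e-06). Pdha2, the copy of the pyruvate dehydrogenase subunit Pdha1, averaged 0.751 CPM in KO testis and 238.5 CPM in WT testis (log2 change −8.30, edgeR adjusted p = 3.62e-06). Taf7l, a relative of the transcription factor subunit Taf7, had a log2 change of −7.51 (edgeR adjusted p = 1.10e-05). The member that was higher was Slc16a7, a lactate and pyruvate transporter, at 7.06 CPM in KO testis and 1.24 CPM in WT testis (log2 change 2.50, edgeR adjusted p = 0.000302). Cstf2t, a copy of the polyadenylation factor gene Cstf2, averaged 109.1 CPM in KO testis and 101.4 CPM in WT testis and did not pass (log2 change 0.10, edgeR adjusted p = 0.737). Rpl10l, Pgk2 and Cetn1 lay in the same range of change as these genes, and Gapdhs lay with Slc16a7 and the housekeeping genes.

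**Figure D2:**
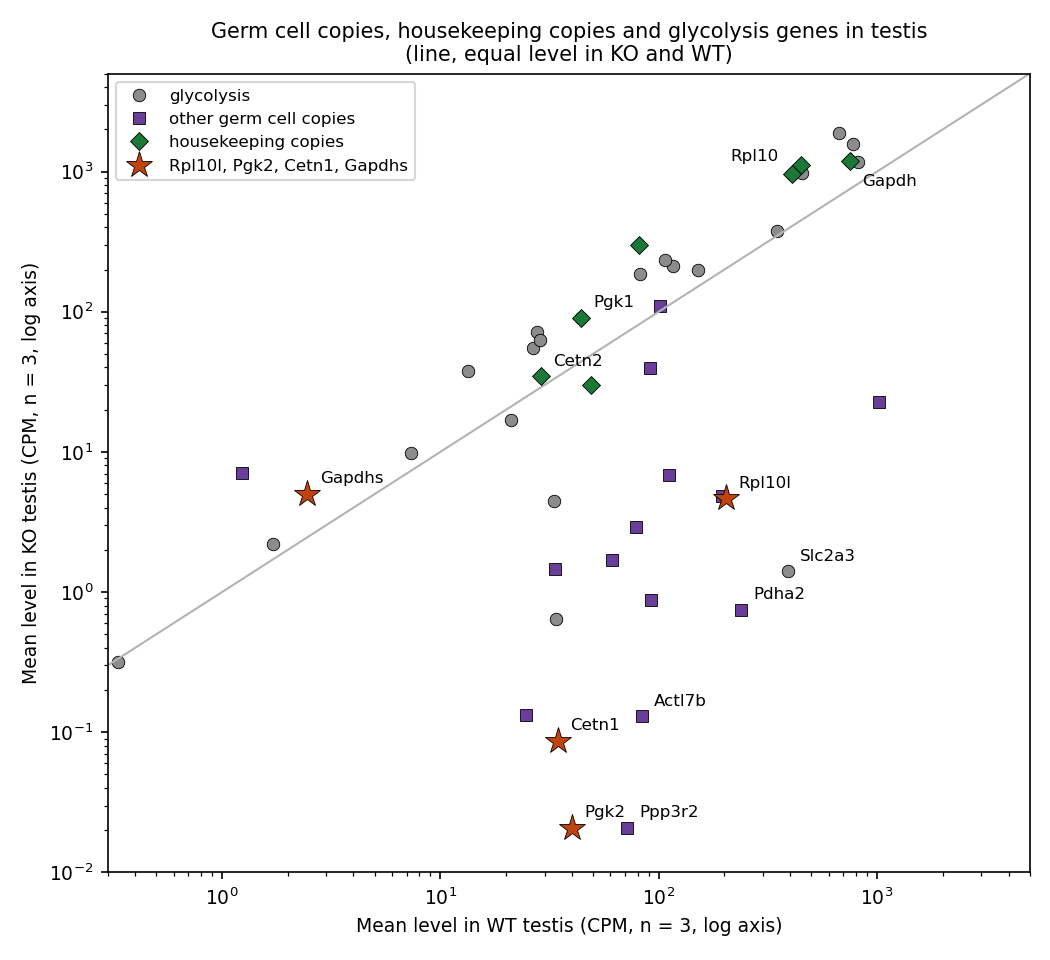
Mean level in KO testis against mean level in WT testis (CPM, log axes, n = 3 libraries each) for the 4 germ cell copies, 7 housekeeping copies, 23 glycolysis genes and 14 other germ cell copies that were tested. Points under the line are lower in KO testis: Pgk2 lies near Ppp3r2 at the foot of the plot, Rpl10l among other germ cell copies, and Gapdhs just above the line.

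Most markers of germ cells moved with Rpl10l, Pgk2 and Cetn1, while Gapdhs went the other way. All 14 early meiosis genes tested were lower in KO testis, as were 10 of 11 genes of pachytene and later spermatocytes, 7 of 9 of spermatids and 7 of 10 of spermatogonia (edgeR). Among all genes tested, 30.2% were lower. The summed level of the pachytene and later list was 77.3 to 128.0 CPM in KO testis and 1990 to 3114 CPM in WT testis, led by Hspa2, a chaperone of spermatocytes that is also in the list of other copies, as is Tbpl1. The summed spermatid list was 39.8 to 54.1 CPM in KO testis and 334.8 to 607.6 CPM in WT testis, led by Dkkl1, a sperm acrosome protein. Within the spermatid list Spata16 had 0 counts in KO testis and 1709 in WT testis. The transition protein gene Tnp1 had 0 counts in KO testis and 2 in WT testis, and Prm2 had 1 in each. Tssk6 (1920 counts in KO testis and 1546 in WT testis) and Izumo1 (303 and 253) did not pass. With Tnp1 and Prm2 almost uncounted in WT testis too, the list does not show a loss of later spermatids in KO testis. Summed levels of early meiosis genes were 45.0 to 78.9 CPM in KO testis and 1329 to 1870 CPM in WT testis.

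Most markers of Sertoli cells, Leydig cells, and macrophages and leukocytes moved the other way, as did most housekeeping copies. Of 10 Sertoli cell genes 8 were higher and 1 lower, all 6 Leydig cell genes were higher, and 7 of 9 macrophage and leukocyte genes were higher (edgeR). Of 8 peritubular and vascular genes 3 were higher and 1 lower (edgeR). Among all genes tested, 27.9% were higher and 30.2% lower, so that the peritubular and vascular list passed at about the share of all genes. The summed Sertoli list, led by Clu, was 15320 to 23200 CPM in KO testis and 7133 to 7786 CPM in WT testis. The summed Leydig list, led by the steroid enzyme gene Cyp17a1, was 2828 to 3419 CPM in KO testis and 462.7 to 553.8 CPM in WT testis. The part of the cell makeup in the levels of the copies and of their housekeeping genes was not tested. Within WT testis Pgk2, Cetn1 and Rpl10l stood highest in replicate 3 and lowest in replicate 2. The summed early meiosis, pachytene and spermatid lists stood in that order, and so did the somatic peritubular and vascular list, at 534.7, 522.1 and 718.5 CPM in WT replicates 1, 2 and 3. Gapdhs stood in the opposite order, highest in WT replicate 2 and lowest in replicate 3.

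In oocytes and embryos the copies parted from each other: Rpl10l was counted in 24 of 26 libraries, Gapdhs and Cetn1 in a few at a handful of counts, and Pgk2 in none. Pgk2 had 0 counts in all 26 libraries, which allows up to 0.298 to 0.729 CPM per library at a limit of 3 counts and up to 0.0149 CPM over the 201156695 gene counts pooled without scaling. Cetn1 had 14 counts in WT-54PEA replicate 2 (1.62 CPM) and 0 elsewhere. Gapdhs had 14 counts in KO-GV replicate 2, 1 in KO-1C-20PEA replicate 1, 4 in WT-GV replicate 2, 2 in WT-10PEA replicate 1, and 4 and 2 in WT-54PEA, and 0 in the other 20 libraries. Only Rpl10l passed the filter on low counts and was tested there.

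The 7 housekeeping copies changed over the WT stages. Pgk1 stood at 10.1 and 18.4 CPM in WT-33PEA and at 96.8 and 95.4 CPM in WT-54PEA. It had no count in the 4 KO libraries of these stages, of which those of KO-54PEA held few genes with a count. In the earlier stages and in the D321 set it lay at 0 to 2.94 CPM. Across the 6 WT stages Pgk1 passed the F test of edgeR (adjusted p = 0.00514), and so did Gapdh (adjusted p = 0.0117), Cetn2 (adjusted p = 0.00645), Cetn3 (adjusted p = 9.91e-05), Ldhb (adjusted p = 0.00297), Rpl10 (adjusted p = 0.0313) and Rpl39 (adjusted p = 4.15e-05). Of all genes tested, 31.8% passed this test. Gapdh stood at 2.65 and 0 CPM in WT-54PEA, against 194.6 and 181.4 CPM in WT-GV, while Rpl39 stood at 418.0 and 452.6 CPM in WT-54PEA, against 51.0 and 38.2 CPM in WT-GV. In the test of a KO to WT difference at any stage, Cetn2 (adjusted p = 0.000463), Rpl39 (adjusted p = 0.0308) and Cetn3 (adjusted p = 0.0408) passed, as did 9.81% of all genes (edgeR).

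At 33PEA Cetn2 stood at 402.6 and 438.5 CPM in KO embryos, against 14.1 and 26.7 CPM in WT embryos. At 54PEA Cetn2 had no count in KO embryos, against 40.0 and 15.6 CPM in WT embryos. Cetn1 had no count in any of the 4 KO libraries of these stages.

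Every WT library from the GV stage on had counts of Rpl10l. In GV oocytes it stood at 29.7 and 28.6 CPM in KO, against 54.4 and 45.7 CPM in WT. In MII oocytes it stood at 75.9 and 25.5 CPM in KO, against 158.0 and 116.6 CPM in WT, and at 86.8 and 115.1 CPM in the KO-MII-D321 set. At 10PEA it stood at 31.1 and 3.64 CPM in KO embryos, against 46.8 and 44.2 CPM in WT embryos. At these 3 stages the KO libraries lay below the WT libraries, a little apart at GV and further apart in 1 KO library at MII and at 10PEA.

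At 1C-20PEA the order was turned round, with 95.5 and 198.2 CPM in KO embryos, against 75.9 and 57.9 CPM in WT embryos. At 33PEA Rpl10l had 0 and 10 counts in KO embryos (0 and 1.54 CPM), against 63.3 and 52.6 CPM in WT embryos. At 54PEA it stood at 178.3 and 0 CPM in KO embryos, against 434.5 and 387.0 CPM in WT embryos. The KO libraries were thus below the WT libraries at 5 of the 6 stages and above them at 1. The share of all genes that lay apart in that direction was 15.8% at GV, 22.2% at MII, 18.7% at 10PEA, 20.7% at 33PEA and 37.9% at 54PEA for KO lower, and 14.4% at 1C-20PEA for KO higher. At the stages where KO was lower, separation with KO higher occurred in 12.3% of genes at GV, 5.77% at MII, 16.4% at 10PEA, 20.1% at 33PEA and 4.41% at 54PEA, and at 1C-20PEA with KO lower in 23.1%. When libraries were scaled to their spike-in counts instead, the KO libraries lay below at GV, 33PEA and 54PEA, and the groups overlapped at MII, 10PEA and 1C-20PEA. Set side by side by equal replicate number, KO lay below WT at MII, above it at 1C-20PEA and in both directions at 10PEA.

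No test of Rpl10l in oocytes and embryos passed with the adjustment over 17294 genes. Averaged over the 6 stages, its log2 change was −1.81 (SE 0.62, unadjusted p = 0.00744, adjusted p = 0.0731, edgeR), beside a median of −0.56 over all genes, of which 7.93% passed (6.24% lower and 1.69% higher in KO). The test of a difference at any stage gave an adjusted p of 0.185 (unadjusted p = 0.0421, edgeR), and that of KO-MII-D321 against WT-MII a log2 change of −0.44 (adjusted p = 1, edgeR), where 0% of genes passed and 278 of 17294 had an unadjusted p under 0.05. The F test across the 6 WT stages gave an adjusted p of 0.251 (edgeR). DESeq2 called Rpl10l in the average (log2 change −1.71, adjusted p = 0.0192) and at any stage (adjusted p = 0.0330), and in neither of the other comparisons. At an unadjusted p under 0.05 edgeR counted the gene in the same comparisons as DESeq2.

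The libraries of 54PEA weighed on these tests. Without KO-54PEA replicate 2, which had no count of Rpl10l or Rpl10, the average log2 change was −1.77 and passed (adjusted p = 0.00402, edgeR), and without KO-54PEA replicate 1 it was −3.96 (adjusted p = 8.79e-06). Without the stage as a whole it was −1.81 (adjusted p = 0.0362). The test that the KO to WT difference varied between stages, which 9.40% of genes passed, gave an adjusted p of 0.304 for Rpl10l (edgeR).

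**Figure D3:**
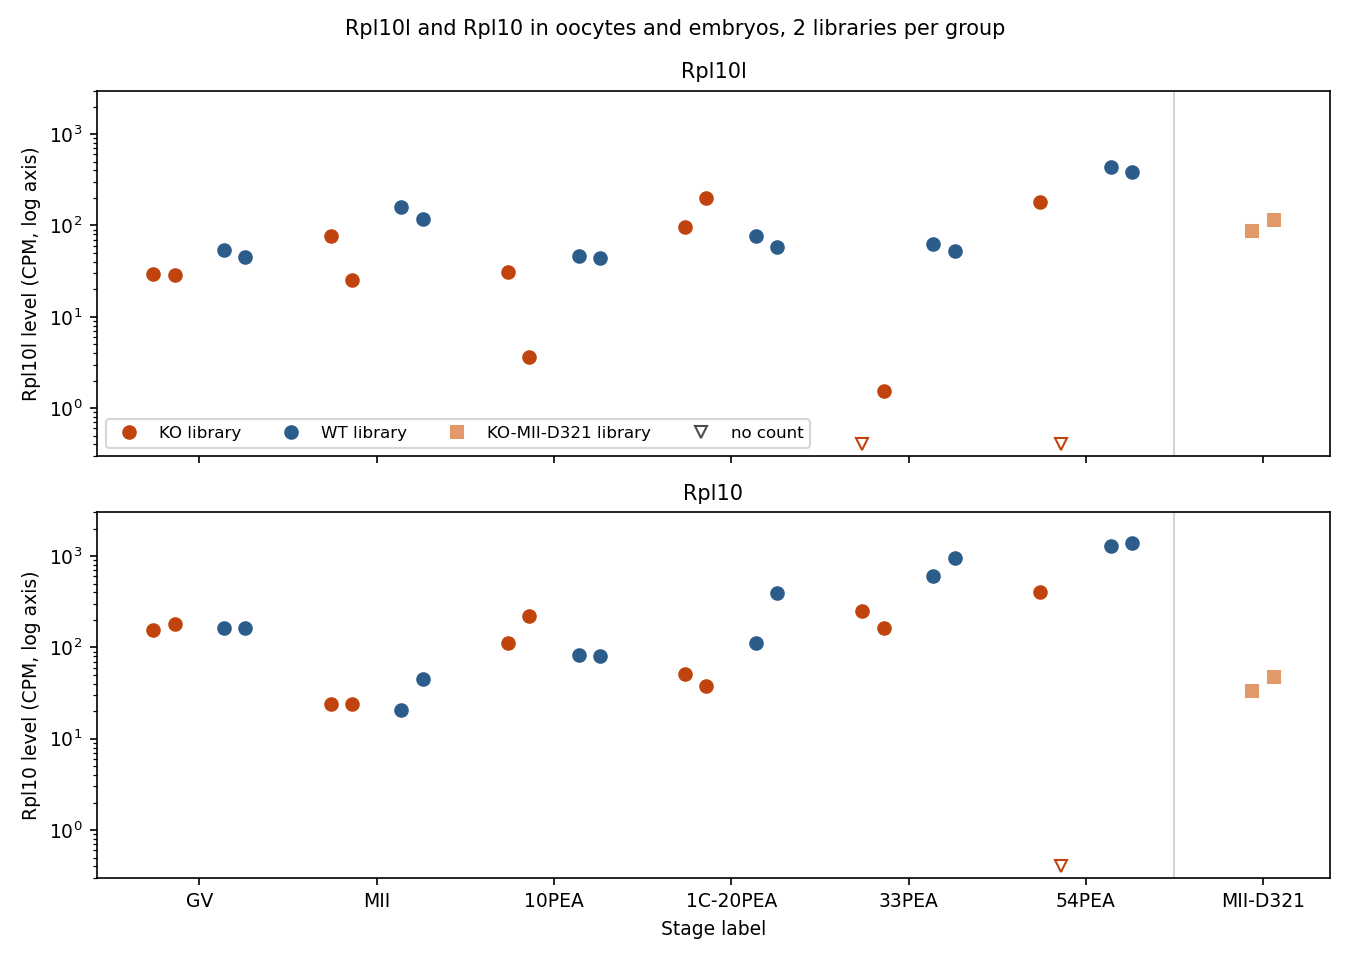
Level of Rpl10l (upper panel) and Rpl10 (lower panel) in each oocyte and embryo library (CPM on a log axis, KO left of WT at each stage, squares for the KO-MII-D321 set, open triangles for no count). Rpl10l is lower in both KO libraries at 5 stages and higher at 1C-20PEA, where Rpl10 is lower in KO, and WT levels of both genes are highest at 54PEA; with spike-in scaling the groups overlap at MII (Rpl10l), 10PEA and 1C-20PEA (both genes), and Rpl10 is lower in KO at GV and MII.

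Over the stages and tissues, the mean level of Rpl10l ran from 410.8 CPM in WT-54PEA, 203.1 CPM in WT testis, 146.9 CPM in KO-1C-20PEA and 137.3 CPM in WT-MII down to 4.66 CPM in KO testis and 0.772 CPM in KO-33PEA. The libraries of WT-54PEA did not overlap those of WT testis, the next in the order, while WT testis overlapped KO-1C-20PEA and KO-1C-20PEA overlapped WT-MII. From KO-MII-D321 (101.0 CPM) to WT-10PEA (45.5 CPM), each group overlapped its neighbour. Testis and embryo libraries were made by different methods, so that the order across them is a description.

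Rpl10 followed another course. It stood at 155.9 and 181.8 CPM in KO-GV, against 164.3 and 164.7 CPM in WT-GV, and at 24.1 and 23.8 CPM in KO-MII, against 20.9 and 45.4 CPM in WT-MII. At 10PEA it stood at 112.7 and 219.1 CPM in KO embryos, against 81.5 and 81.4 CPM in WT embryos, and at 1C-20PEA at 51.0 and 37.7 CPM in KO embryos, against 110.4 and 396.8 CPM in WT embryos. The groups overlapped at GV and MII, then lay apart, with KO above WT at 10PEA, as for 16.4% of all genes, and below it at 1C-20PEA, as for 23.1%. At 33PEA it stood at 253.1 and 163.8 CPM in KO embryos, against 604.9 and 947.7 CPM in WT embryos. At 54PEA it stood at 403.3 and 0 CPM in KO embryos, against 1288 and 1402 CPM in WT embryos. Thus at 10PEA Rpl10l was lower and Rpl10 higher in KO, at 1C-20PEA the pair moved the opposite way, and at 33PEA and 54PEA both were lower in KO. With spike-in scaling Rpl10 lay below WT in both KO libraries at GV and MII, both genes overlapped between KO and WT at 10PEA and at 1C-20PEA, and both were still lower in KO at 33PEA and 54PEA. KO lay below WT without overlap for 20.7% of all genes at 33PEA and 37.9% at 54PEA.

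Among WT oocytes and embryos, the share of the pair's counts taken by Rpl10l was highest at MII. The MII shares were 75.9% and 51.7% in KO, 72.5% and 70.8% in KO-MII-D321, and 88.3% and 72.0% in WT. In GV oocytes it was 16.0% and 13.6% in KO, against 24.9% and 21.7% in WT. At 10PEA it was 21.6% and 1.63% in KO, against 36.5% and 35.2% in WT, and at 1C-20PEA 65.2% and 84.0% in KO, against 40.7% and 12.7% in WT. At 33PEA it was 0% and 0.935% in KO, against 9.47% and 5.26% in WT. At 54PEA it was 30.7% in the KO library with counts, against 25.2% and 21.6% in WT. In KO the share was thus lower in both libraries at GV, 10PEA and 33PEA and higher in both at 1C-20PEA, while the groups overlapped at MII. How often other pairs of genes part like this with 2 libraries a group was not worked out. In WT embryos at 33PEA and 54PEA the ribosomal pair was thus counted mostly as Rpl10, as in GV oocytes, and in MII oocytes mostly as Rpl10l.

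**Figure D4:**
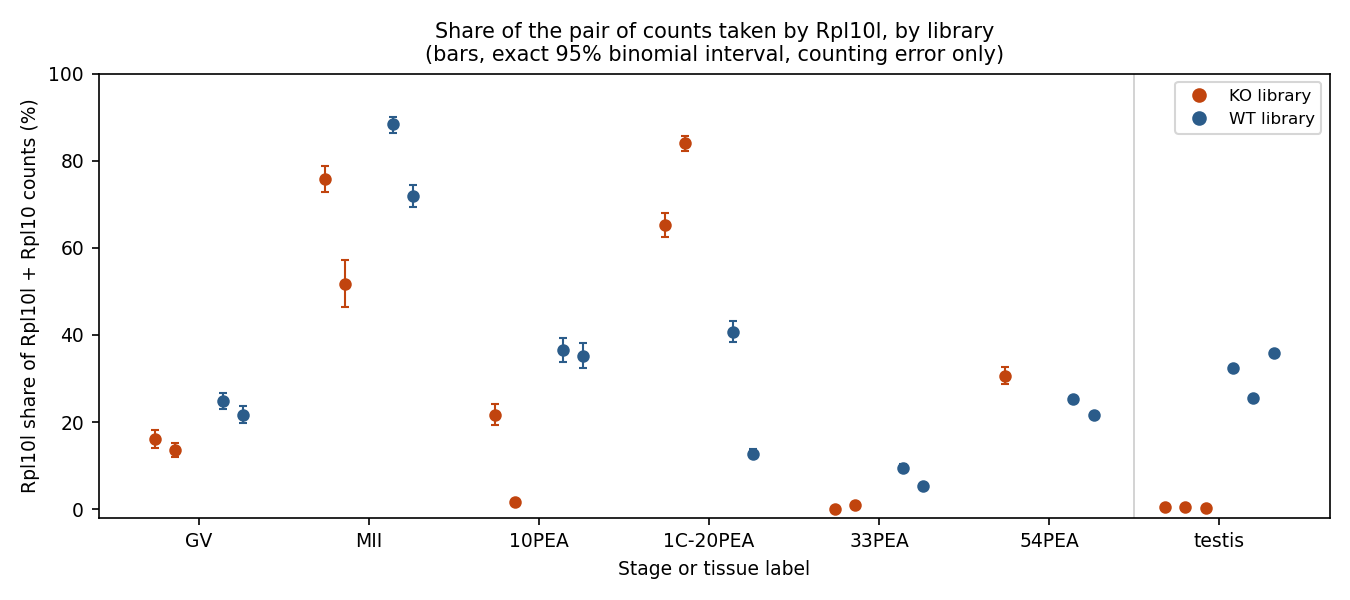
Share of the Rpl10l and Rpl10 counts taken by Rpl10l in each library (percent, KO left of WT, bars for the exact 95% binomial interval, counting error only). WT shares are 72.0% and 88.3% at MII, 5.26% and 9.47% at 33PEA and 25.5% to 35.8% in testis, and KO testis lies under 1%; KO-54PEA replicate 2 has no count of either gene and no point.

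Averaged over the 6 stages, the log2 ratio of Rpl10l to Rpl10 was −2.29 in KO and −1.25 in WT, a difference of −1.04 (exact permutation p = 0.260, two-sided, over 46656 regroupings within stages). The stage differences in log2 ratio ran from −5.55 at 33PEA, −3.03 at 10PEA, −1.26 at MII and −0.81 at GV to 1.12 at 54PEA and 3.31 at 1C-20PEA. The value at 54PEA rests in part on a KO library without a count of either gene, in which the added 0.5 sets the ratio to equal. The mean difference was −0.60 without KO-33PEA replicate 1 and −1.47 without KO-33PEA replicate 2, the extremes when 1 library was left out. The stage differences had opposite signs, so that they partly offset each other in the mean and also widen the spread of the regroupings. The test of the mean therefore does not decide whether the ratios differed at a given stage.

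Among all genes, 7.93% passed in the average over the 6 stages, 6.24% lower and 1.69% higher in KO, against which the lists can be read. Of 18 glycolysis genes tested 1 was lower in KO, a share near that of all genes, namely the glucose transporter Slc2a3 (log2 change −3.31, adjusted p = 0.0120, edgeR), and the median was −0.56, as over all genes. Of 12 other germ cell copies tested, the transcription factor subunit gene Gtf2a1l was higher in KO (log2 change 1.25, adjusted p = 0.0151, edgeR) and the ADP/ATP carrier Slc25a31 lower (log2 change −3.50, adjusted p = 0.0241, edgeR), with a median of −0.51. Of the housekeeping copies 0 of 7 passed in the average with edgeR, 3 had an unadjusted p under 0.05, and DESeq2 called 2, Ldhb and Rpl39. For Pgk1 this test decides nothing. It had no count at MII in KO or WT, and its average log2 change of −2.84 had an SE of 6435. Of 11 oocyte markers 3 were higher in KO in the average and none was lower (edgeR), namely the survival gene Bcl2l10 (log2 change 1.85, adjusted p = 6.08e-05), the importin Kpna7 (1.05, adjusted p = 0.00654) and the maternal gene Nlrp5 (1.36, adjusted p = 0.0103). These calls rest on TMM scaling. With spike-in scaling far fewer genes were called higher in KO, as set out below, and these markers were not looked up there. Oocyte markers summed to 113.0 to 28720 CPM in WT libraries and 791.9 to 24690 CPM in KO libraries. Granulosa and cumulus markers summed to 0 to 29.8 CPM over the 26 libraries.

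Genes with the most similar pattern were found by the root mean square distance of log2(CPM + 1) over all 32 libraries. Nearest to Pgk2 were Pifo (0.106), Slc9b1 (0.117) and CUNH9orf57 (0.131), each without a count in oocytes and embryos. Nearest to Cetn1 were Ak9 (0.229), Pifo (0.249) and Slc9b1 (0.253). Pgk2 and Cetn1 thus shared 2 of their 3 nearest genes. Nearest to Gapdhs were Neurl2 (0.251), Znf503 (0.269) and Ebi3 (0.287). Nearest to Rpl10l were Hspa14 (1.46), Snx4 (1.47) and Thoc7 (1.56), which were also counted in testis, oocytes and embryos. By this measure, genes with few or no counts in oocytes and embryos lie close to each other, since those libraries then add almost no distance. Distances therefore do not compare between Rpl10l and the other copies, and shared nearest genes partly follow from absent counts.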

How the data were processed

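Long RNA of 32 libraries was analysed, 6 of testis and 26 of oocytes and embryos, and the 32 small RNA samples were not used here. The values are read counts per gene as deposited by the authors. The submitters' processing notes name featureCounts, STAR 2.7.1a, Trim Galore and TopHat, with no role given. Single oocytes and embryos were prepared by a Smart-seq2-like method with ERCC spike-in RNA, and testis RNA was depleted of ribosomal RNA, per the labels' protocols. Each file held 32303 gene rows and 92 ERCC rows, which stayed out of library sizes, and 8 lines that name no gene were dropped from 1 file. Names were matched to RefSeq (BCM_Maur_2.0) for 31882 genes.

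The quasi-likelihood F test of edgeR 4.0.16 (R 4.3.3; TMM, filterByExpr) was run in 2 fits, one of testis (18024 genes, common dispersion 0.0806) and one of 13 oocyte and embryo groups (17294 genes, 1.07). The second takes 1 spread per gene over all stages. Benjamini and Hochberg's adjustment covered all genes tested in a fit, with a threshold of 0.05. Ratios of a copy to its housekeeping gene were compared by exact permutation (SciPy 1.17.1). On simulated counts, 200 well-counted genes were changed by 3 on the log2 scale, alike at every stage and from the same base level in all groups. Of these, 99.5% were called in the testis fit (18030 genes tested) and 81% in the average over stages (17006 genes tested). These shares do not cover genes with low counts, smaller changes or changes that differ between stages.

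The copies and gene lists were chosen with earlier results of these data known. Genes named are the copies, their housekeeping genes, Pld6, up to 4 genes each way of the glycolysis and other copies lists that passed in testis, up to 2 leading markers of a list, and the 3 nearest genes per copy. Cstf2t, Tnp1, Prm2, Spata16, Tssk6, Izumo1, Tbpl1, Gtf2a1l, Slc25a31 and Nlrp5 were named after their values were seen. Alternatives were RLE scaling, no filter, ERCC scaling, leaving out 54PEA, the replicate block, DESeq2 1.42.0, other added counts, and leaving out each library.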

Additional observations from a re-analysis of the deposited data

Results flagged for a closer look

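Rpl10l at 1C-20PEA ran against the other sets. Both KO libraries lay above both WT libraries, by 1.13 in the log2 ratio of group means, while in testis and at the other 5 stages every KO library lay below every WT library. The difference between these sets was not tested as such. The test of stages against each other gave an adjusted p of 0.304 (edgeR) for Rpl10l, and 0.0137 without the filter on low counts. Scaled to the spike-in counts, 1C-20PEA overlapped, at 139.5 to 324.5 in KO and 24.9 to 157.7 in WT. By equal replicate number KO lay above WT there, at 324.5 against 157.7 and at 139.5 against 24.9.

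Gapdhs was higher in every KO library in testis, by 1.04 in the log2 ratio of group means, and lower in every KO library at 54PEA. At 54PEA this rests on 0 and 0 counts in KO, against 4 and 2 counts in WT. The difference was not tested.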

How the results depend on the processing

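In testis all 4 copies stayed called under RLE scaling, no filter, the replicate block and DESeq2, and 3 to 4 when 1 library was left out, where the call lost was that of Gapdhs. For Rpl10l over the stages, 1 in place of 0 copies was called in the average and at any stage under no filter, ERCC scaling, without 54PEA and with DESeq2, and 1 across the WT stages under no filter. Leaving out 1 library gave 0 to 1 in these comparisons. In the average it gave 1 without KO-10PEA replicate 1, KO-33PEA replicate 2, WT-54PEA replicate 2 or either KO-54PEA library, and at any stage and across the WT stages without either KO-54PEA library. The cause was not tested. No direction of a copy was reversed. ERCC scaling moved the median log2 change of all genes in the average to −1.10, against −0.56, and the genes called to 31 higher and 2112 lower, against 292 and 1080.

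Genes called in the average were 1372, against 2143 with ERCC scaling, 464 without 54PEA, 3099 with DESeq2 and 852 to 3008 when 1 library was left out. At any stage they were 1696, against 3458 without the filter, 707 without 54PEA, 4762 with DESeq2 and 1371 to 3486 when 1 library was left out. In KO-MII-D321 against WT-MII they were 0, against 2 without the filter, 115 with DESeq2 and 0 to 3 when 1 library was left out. Across the WT stages they were 5500, against 8984 with ERCC scaling and 3848 to 7552 when 1 library was left out, and in testis 10459, against 8180 to 11524.

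Equal replicate numbers did not pair the samples: deviations of same-numbered libraries correlated at −0.069 to 0.029 in testis and −0.035 to 0.169 over the stages. With the replicate block, testis had 9691 genes called and the average 1324, and Rpl10l in the average had a log2 change of −1.85 (adjusted p = 0.0675, edgeR). Depth limits Pgk2, Cetn1 and Gapdhs in oocytes and embryos, where 0 counts in a library allow a level of up to 0.298 to 0.729 CPM. The differences in log2 ratio of copy to housekeeping gene kept their sign under every setting tried. When 1 testis library was left out, they were −6.92 to −6.54 for Rpl10l over Rpl10 and −12.09 to −11.01 for Pgk2 over Pgk1. They were −9.83 to −7.95 for Cetn1 over Cetn2 and 0.16 to 0.71 for Gapdhs over Gapdh. Over the stages, Rpl10l over Rpl10 gave −1.47 to −0.60 when 1 oocyte or embryo library was left out (exact permutation p = 0.164 to 0.425).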
